A study of Rattus norvegicus with 6 samples.

Results

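The transcripts of 10 cell surface receptors through which incretins, glucagon, fatty acids and neurotransmitters act on pancreatic islets were compared between rats aged 3 and 12 months. The receptors were chosen by name: *Glp1r*, *Gipr*, *Gcgr* and *Gpr119*, *Ffar1* and *Chrm3*, and *Adra2a*, *Sstr2*, *Sstr3* and *Sstr5*. Among the 24684 probes of the array 13903 genes could be named. A probe was matched for 9 of the 10 receptors, all but *Adra2a*, and 8 were tested. Islets, the clusters of endocrine cells in the pancreas, came from male Wistar rats by collagenase digestion, and their total RNA was measured on 1-colour arrays, 3 at 3 months and 3 at 12 months. The RNA came from 3 rats of each age per the study's supplement, but the labels do not tie an array to a rat, so p-values measure the spread between these arrays, which may in part be technical. Each age was read in a scan of its own, so that age and scan cannot be told apart in any comparison.

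All of these receptors are coupled to G proteins. Those coupled to Gs raise cyclic AMP and amplify glucose-stimulated insulin secretion, as the incretin hormones GLP-1 and GIP do after a meal. Those coupled to Gq release calcium from internal stores, and those coupled to Gi lower cyclic AMP and restrain hormone release. Cyclic AMP also acts on transcription through CREB, a factor that binds the cyclic AMP response element in promoters.

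A pair of promoters is printed here as the sequence context of the receptor that passed the test and of the receptor that holds the full response element, TGACGTCA. Each runs from 250 bases before to 50 bases after the annotated start, taken from RefSeq on assembly GRCr8, written 5′ to 3′ on the strand of the gene, with matches to the element in capitals. The *Gpr119* promoter lies at chrX:132736031-132736330 on the minus strand and the *Sstr2* promoter at chr10:99163103-99163402 on the plus strand.
Gpr119 promoter: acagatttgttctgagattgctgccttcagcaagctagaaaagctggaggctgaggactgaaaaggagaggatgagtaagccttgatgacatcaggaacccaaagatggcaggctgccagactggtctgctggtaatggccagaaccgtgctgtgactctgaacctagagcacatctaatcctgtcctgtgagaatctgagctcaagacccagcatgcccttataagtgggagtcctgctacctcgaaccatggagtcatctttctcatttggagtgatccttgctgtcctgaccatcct
Sstr2 promoter: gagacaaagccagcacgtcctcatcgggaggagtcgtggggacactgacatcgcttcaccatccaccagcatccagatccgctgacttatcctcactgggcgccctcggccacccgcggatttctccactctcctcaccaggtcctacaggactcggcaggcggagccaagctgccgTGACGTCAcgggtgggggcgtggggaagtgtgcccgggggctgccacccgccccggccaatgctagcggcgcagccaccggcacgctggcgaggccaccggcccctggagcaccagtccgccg
The element was searched on both strands, together with its shorter core TGACG, which lies within it. The match in *Sstr2* begins 73 bases before the annotated start. Of the 9 receptors with a promoter in the table, which lacks *Gipr*, *Sstr2* was the 1 with the full element, against 1.83% of 33469 rat promoters. The core was found in 4 of the 9 (*Glp1r*, *Ffar1*, *Chrm3* and *Sstr2*), against 21.2% of all promoters. These matches are letters in a window and say nothing about binding.

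Of the 8 receptors tested, 1 rose with age, *Gpr119*, and 7 did not pass an adjusted p of 0.05 (limma, Benjamini-Hochberg over all probes tested). Over all 17941 probes tested 8.34% passed, 5.31% higher and 3.03% lower at 12 months, so 1 of 8 is near the background. The 8 differences ran from -0.55 to 1.52 log2 units with a median of 0.49, and 6 were positive, among them that of *Sstr5*, whose 12-month readings were near background, whereas the median over all tested probes was -0.17. With each array shifted to a common 75th percentile in place of quantile normalization the median of all probes was -0.40, and 4 of the 8 were positive. The study itself counted genes that changed more than 2-fold with a nominal p below 0.05; with the p of limma in place of that of the study, *Gpr119* was called by that rule and no other receptor, against 22.0% of all probes. The ages did not overlap for 3 receptors, *Gpr119* higher and *Gcgr* and *Chrm3* lower at 12 months, against 39.1% of all probes (16.5% higher and 22.6% lower). In whole islets, fewer cells of a type and less RNA per cell cannot be told apart.

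**Figure D1:**
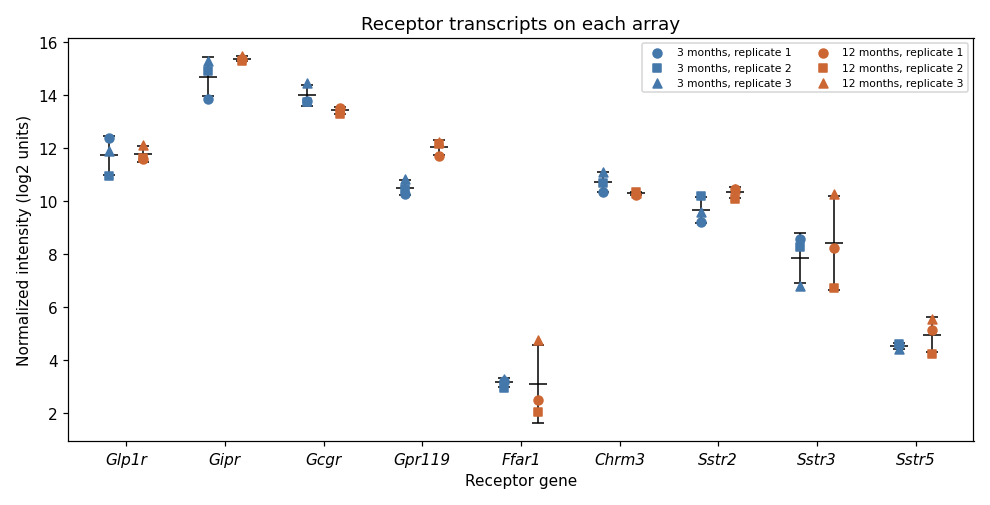
Normalized intensity in log2 units (vertical axis) of the 9 receptors with a probe, on 3 arrays at 3 months (blue) and 3 at 12 months (orange), with the mean and SD in black and a symbol for each replicate. The heights of different receptors are readings of different probes and are not comparable, and *Gpr119* is the receptor whose 12-month arrays, 11.69 to 12.24, all lie above its 3-month arrays, 10.25 to 10.81.

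Among the receptors coupled to Gs, *Gpr119* binds oleoylethanolamide and other fatty acid amides and monoacylglycerols, and raises cyclic AMP in beta cells. Its normalized intensity was 10.25, 10.46 and 10.81 log2 units on the 3-month arrays and 11.69, 12.14 and 12.24 on the 12-month arrays. All 12-month arrays lay above all 3-month arrays. The difference was 1.52 log2 units (limma SE 0.27, 95% interval 0.86 to 2.17, adjusted p 0.0265), a fold of 2.86 with an interval of 1.82 to 4.50. An exact two-sided permutation test gave 0.1, the smallest p that 3 arrays against 3 allow. The study listed this gene from these same arrays, so the call is not independent evidence.

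The direction for *Gpr119* held in all 18 alternative settings and the call in 10 of them, with differences from 1.25 to 1.68 log2 units and adjusted p-values (limma, or the methods' t-test where named) from 0.0102 to 0.254. Leaving out 1 array ended the call in 5 of 6 fits. The adjusted p was 0.0869, 0.0591 and 0.0523 in limma without 3-month replicates 1, 2 and 3, and 0.0730 and 0.0883 without 12-month replicates 1 and 3. Without 12-month replicate 2 it was 0.0424.

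**Figure D2:**
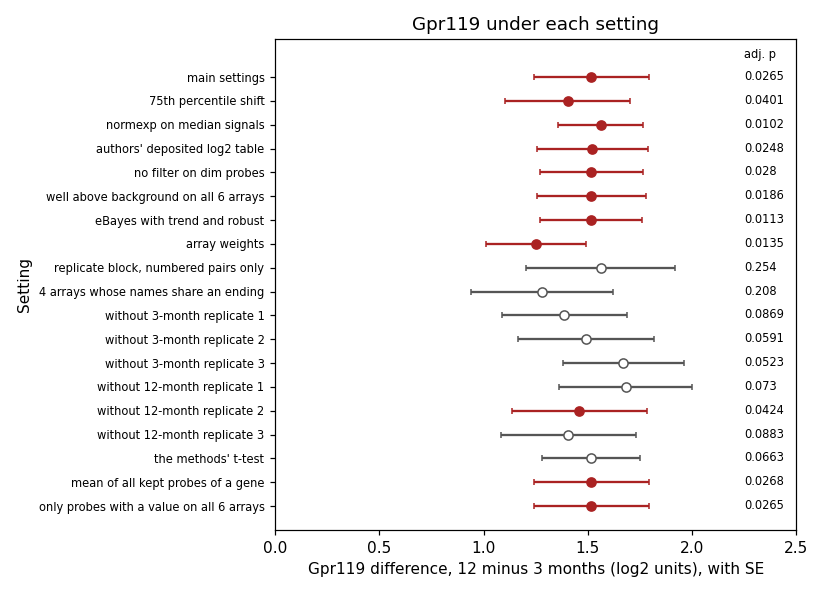
Difference of *Gpr119* between 12 and 3 months (horizontal axis, log2 units, with SE) under the main and the 18 alternative settings (vertical axis), filled and red where the adjusted p printed at the right was under 0.05. Each point lies between 1.25 and 1.68, and the settings that lost the call are those with fewer arrays, other than the one without 12-month replicate 2, and the methods' t-test.

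*Glp1r* encodes the GLP-1 receptor, the target of the incretin drugs. It read 12.37, 10.93 and 11.89 log2 units at 3 months and 11.58, 11.61 and 12.13 at 12 months. The 12-month arrays lay within the range of the 3-month arrays, of which replicate 2 was the lowest and replicate 1 the highest. The difference was 0.04 log2 units with a 95% interval of -0.93 to 1.02 (limma adjusted p 0.950), so changes of up to about 1 log2 unit either way lay within the interval.

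*Gipr* encodes the receptor of the other incretin, GIP. Its values were 13.86, 14.90 and 15.27 log2 units at 3 months and 15.35, 15.27 and 15.45 at 12 months. Of the 12-month arrays, replicates 1 and 3 lay above the highest 3-month array and replicate 2 just below it, and 3-month replicate 1 stood lowest. The difference was 0.68 log2 units (limma SE 0.39, 95% interval -0.24 to 1.60, adjusted p 0.258).

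*Gcgr*, the glucagon receptor, through which alpha cells act on their beta cell neighbours, read 13.76, 13.73 and 14.43 log2 units at 3 months. At 12 months it read 13.51, 13.27 and 13.48. All 12-month arrays lay below all 3-month arrays, by a difference of -0.55 log2 units (limma SE 0.28, 95% interval -1.21 to 0.11, adjusted p 0.211). A second probe of the gene, on another RefSeq transcript, had a difference of -0.39 (limma SE 0.27, adjusted p 0.337), in the same direction.

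**Figure D3:**
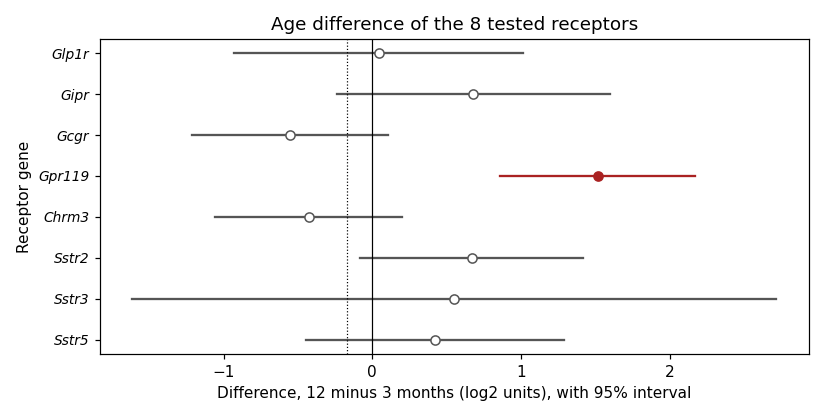
Difference between 12 and 3 months (horizontal axis, log2 units) of the 8 tested receptors (vertical axis) with the 95% interval from limma, filled and red where the adjusted p was under 0.05. The dotted line marks the median of all tested probes, -0.17, and the interval of *Gpr119*, 0.86 to 2.17, is the 1 that does not reach 0.

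Of the receptors coupled to Gq, *Chrm3* encodes the muscarinic receptor that carries the parasympathetic signal of acetylcholine to beta cells. It read 10.36, 10.70 and 11.09 log2 units at 3 months and 10.21, 10.35 and 10.30 at 12 months. The 12-month arrays lay close together just below the lowest 3-month array, and the difference was -0.43 log2 units (limma SE 0.27, 95% interval -1.06 to 0.20, adjusted p 0.293).

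*Ffar1*, also called GPR40, is the receptor for long-chain fatty acids in beta cells. Its probe cleared the background on 1 array of 3 at 3 months and on 0 of 3 at 12 months, so it was not tested. The readings were 3.23, 2.97 and 3.31 log2 units at 3 months and 2.51, 2.06 and 4.78 at 12 months. The lowest signals that counted as well above background were 2.89 to 3.17 log2 units on the 3-month arrays, in the range of these readings, and 4.26 to 5.13 on the 12-month arrays, each above the *Ffar1* reading of its array. The readings carry no order between the ages.

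Of the receptors coupled to Gi, *Adra2a*, the adrenoceptor through which noradrenaline inhibits insulin release, had no probe matched by name and was not analysed here. *Sstr2*, *Sstr3* and *Sstr5* are receptors for somatostatin, with which delta cells restrain their neighbours. *Sstr2* read 9.21, 10.19 and 9.58 log2 units at 3 months and 10.46, 10.08 and 10.44 at 12 months. The ages overlapped through 3-month replicate 2 and 12-month replicate 2, and the difference was 0.67 log2 units (limma SE 0.32, 95% interval -0.08 to 1.42, adjusted p 0.192).

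*Sstr5* was dim, well above background on 3 of 3 arrays at 3 months and on 1 of 3 at 12 months. It read 4.59, 4.63 and 4.42 log2 units at 3 months and 5.13, 4.23 and 5.54 at 12 months. The 12-month arrays lay on both sides of the 3-month arrays, and the fitted difference was 0.42 log2 units (limma SE 0.37, adjusted p 0.443). Its size rests on readings near background at 12 months, and it turned negative with the 75th percentile shift, at -0.16.

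*Sstr3* varied more between arrays of an age than any other receptor tested, with an SD of 0.95 log2 units at 3 months and 1.77 at 12 months (n = 3 each). It read 8.55, 8.25 and 6.79 at 3 months and 8.25, 6.74 and 10.26 at 12 months. The lowest array of each age, 3-month replicate 3 and 12-month replicate 2, stood well below the others, and 12-month replicate 3 well above. The difference was 0.55 log2 units with a 95% interval of -1.62 to 2.72 (limma adjusted p 0.692). Without 12-month replicate 3 it was -0.37.

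Acinar cells, the enzyme-secreting cells around islets, left their transcripts on all arrays, and these varied in a like manner. *Ctrb1*, the digestive enzyme precursor chymotrypsinogen, read 16.61, 17.07 and 14.02 log2 units at 3 months and 17.64, 14.39 and 17.91 at 12 months. The summed level of the 9 acinar markers was lowest on the same arrays as *Sstr3*, 20.68 on 3-month replicate 3 and 20.58 on 12-month replicate 2, against 21.11 to 21.26 on the other 4. *Ffar3*, a receptor for short-chain fatty acids named here after its values were seen, also read lowest of its age on those arrays, at 6.74 and 6.38. The summed level of the 3 duct markers was also lowest of its age on those arrays, at 13.03 and 12.46. The pattern was therefore not particular to acinar markers. The part of acinar, duct or other RNA in these readings was not tested.

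**Figure D4:**
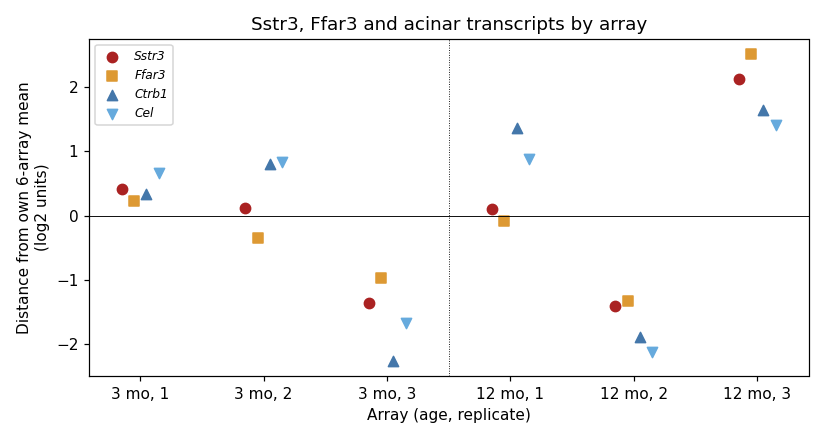
Distance of *Sstr3*, *Ffar3* and the acinar transcripts *Ctrb1* and *Cel* from their own mean over the 6 arrays (vertical axis, log2 units) on each array (horizontal axis; replicates have no order). All of these lie lowest within their age on 3-month replicate 3 and 12-month replicate 2, where *Sstr3* read 6.79 and 6.74.

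In 5 of the 8 receptors tested, *Glp1r*, *Gipr*, *Gcgr*, *Chrm3* and *Sstr2*, the SD was wider at 3 months than at 12. Over all probes with a value on every array this was so for 53.5%. The 3-month SD of *Gipr* was 0.73 log2 units and the 12-month SD 0.09, and for *Chrm3* they were 0.37 and 0.07 (n = 3 each).

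The other receptors of a list of 40 known in islets gave a setting for these values. Of the 29 that were tested, 2 rose and 1 fell at an adjusted p under 0.05 in limma, and 26 did not pass, against 8.34% of all probes called, with a median of -0.09 log2 units. At the threshold of the study 2 were higher and 7 lower, against 22.0% of all probes called (1819 higher and 2134 lower). Among the lower genes, *Adra1d*, *Galr1* and *Npy1r* were well above background on every array. *Glp2r*, *Adrb3*, *Chrm1* and *Cnr1* were so on every 3-month array and on no 12-month array. These passed the filter on low values through their 3-month arrays alone, so their calls at that threshold are no support for a fall among these receptors. *P2ry1*, the ADP receptor that couples to Gq, read 8.09, 8.27 and 8.69 log2 units at 3 months and 10.28, 11.72 and 11.30 at 12 months. Its difference of 2.75 log2 units (limma SE 0.41, adjusted p 0.0162) was a fold of 6.73, and the ages were well apart. *Ffar4*, also called GPR120 and a receptor for long-chain fatty acids like *Ffar1*, rose by 1.42 log2 units from 8.06 ± 0.55 to 9.47 ± 0.19 (SD, n = 3; limma adjusted p 0.0481). *Glp2r*, the receptor of GLP-2, a sister peptide of GLP-1, was well above background at 3 months on every array and at 12 months on none. The size of its fall is therefore uncertain. It was 1.61-fold with each 12-month reading replaced by the lowest signal well above background on its array. This is not a strict minimum, as that signal can come from any probe. The fitted difference had an adjusted p of 0.0383 in limma. The gene passed the filter on low values through its 3-month arrays alone, so its call is no support for a fall among these receptors. With normexp background correction the difference was -0.39 log2 units, a smaller fall than 1.61-fold (limma adjusted p 0.188). Each of *Ffar4* and *Glp2r* failed the threshold without 3-month replicate 1, without 3-month replicate 3, without 12-month replicate 1 and without 12-month replicate 3, and *Ffar4* also failed without 12-month replicate 2 and *Glp2r* without 3-month replicate 2. *P2ry1* failed without 3-month replicate 1 (adjusted p 0.0663 in limma) and without 12-month replicate 3 (0.0621).

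**Figure D5:**
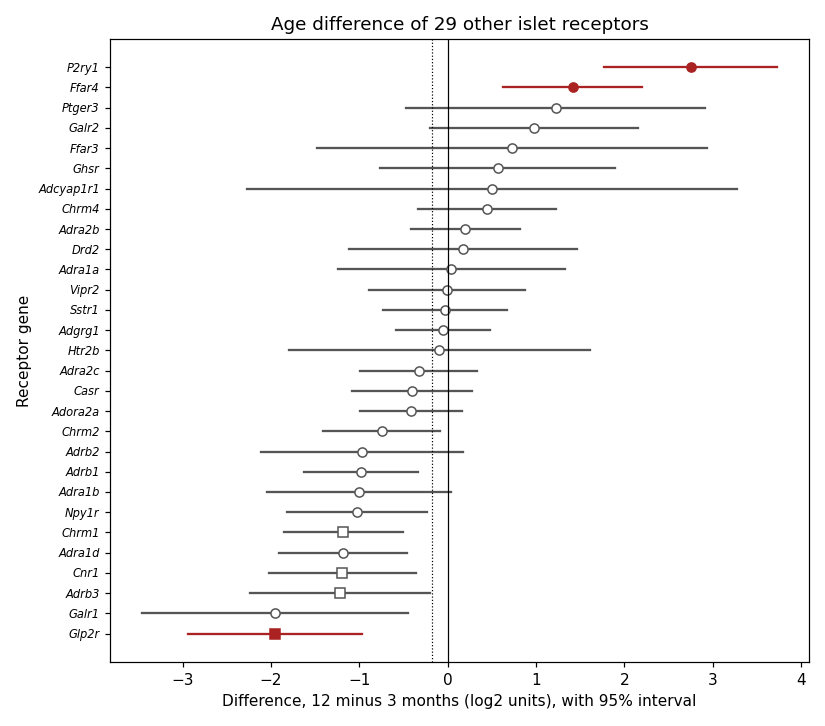
Difference between 12 and 3 months (horizontal axis, log2 units) of 29 other receptors (vertical axis) with the 95% interval from limma, filled and red where the adjusted p was under 0.05; squares mark probes well above background on no 12-month array, whose fitted sizes rest on background readings. The dotted line is the median of all tested probes, -0.17, and *P2ry1* at 2.75 stands highest.

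The hormones and enzymes that supply or remove the ligands were a list of 18 genes, of which 14 were tested and 1 rose, against 8.34% of all probes called. This was *Lpl*, lipoprotein lipase, which frees fatty acids from triacylglycerol. It read 4.94, 4.90 and 5.14 log2 units at 3 months and 7.99, 8.66 and 8.27 at 12 months, a difference of 3.32 (limma SE 0.26, adjusted p 0.00307). With normexp it was 2.01. The other 13 did not pass, and the median of the 14 was -0.12. *Gcg*, whose precursor holds both glucagon and GLP-1, differed by 0.19 log2 units (limma adjusted p 0.559), and *Sst*, somatostatin, by 0.32 (0.372). *Gip* differed by -1.03 (limma SE 0.50, adjusted p 0.200), and *Dpp4*, the protease that inactivates the incretins, by -0.42 (0.556).

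Among 16 genes of proteins that tune or silence activated receptors, 14 were tested, 1 rose and 1 fell, against 8.34% of all probes called, with a median of -0.09. *Grk5*, a kinase that marks activated receptors for desensitization, read 8.53, 8.95 and 8.76 log2 units at 3 months and 9.75, 9.95 and 9.68 at 12 months. Its rise was 1.04 log2 units (limma SE 0.23, adjusted p 0.0443). *Ramp3*, a membrane partner of calcitonin-family receptors, fell by 1.32 log2 units (limma SE 0.30, adjusted p 0.0451), from 12.63 ± 0.45 to 11.31 ± 0.19 (SD, n = 3). The ages did not overlap for either gene, but neither passed in any fit that left out 1 array.

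Of 20 genes of G protein alpha subunits and their first effectors, 17 were tested and 2 rose, *Gnao1* and *Gnai1*, against 8.34% of all probes called, with a median over the 17 of 0.38. Both encode alpha subunits of the Gi and Go class, of which the other members tested did not pass: *Gnai2* differed by 0.04 log2 units, *Gnai3* by 0.45 and *Gnaz*, well above background on no 12-month array, by -1.32 (limma adjusted p 0.913, 0.193 and 0.0551). *Gnao1* read 4.48, 5.87 and 6.32 log2 units at 3 months and 7.82, 7.51 and 8.27 at 12 months. Its difference was 2.31 (limma SE 0.50, adjusted p 0.0402), or 1.19 with normexp, and the call was lost in 5 of 6 fits that left out 1 array, all but that without 12-month replicate 2. *Gnai1* read 2.02, 3.52 and 2.85 log2 units at 3 months and 8.65, 8.96 and 8.77 at 12 months (limma adjusted p 0.00225). At 3 months 1 array of 3 was well above background, so the gene passed the filter through its 12-month arrays. Its call is therefore no support for a rise among these genes. No size is given for the rise beyond these readings, and when detection on each of the 6 arrays was required, where the gene drops out, 1 gene of the list was called.

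Markers of the cell types that an islet preparation can hold were read beside the receptors. Every endocrine marker with a probe passed the filter on low values. Of these, 1 of 7 beta cell genes (*Slc30a8*, the zinc transporter of insulin granules, by 3.71 log2 units), 1 of 5 delta cell genes (*Hhex*, by 1.68), 0 of 7 alpha cell genes and 0 of 1 pancreatic polypeptide cell genes rose at an adjusted p under 0.05 in limma, against 8.34% of all probes called in either direction. The summed level was 19.70 to 19.92 log2 units at 3 months and 20.00 to 20.19 at 12 months for beta cells, 18.05 to 18.07 and 18.13 to 18.36 for alpha cells, 17.99 at most and 18.29 at least for pancreatic polypeptide cells, and 17.75 to 18.13 and 18.10 to 18.36 for delta cells. The ages did not overlap for the first 3 of these types and overlapped for delta cells, where 39.1% of all single probes did not overlap. Quantile normalization gave some of the brightest probes the same value on several arrays. For example, *Ins1* read 18.72 on 3-month replicate 3 and on 12-month replicates 1 and 2. Small differences among the hormone transcripts are therefore uncertain. The pancreatic polypeptide cell level is that of 1 gene. The alpha cell level was mostly that of *Gcg*, with means of 18.01 and 18.19. Of the bright beta cell genes, *Iapp* differed by 0.95 without overlap, and *Ins1* by 0.10 and *Ins2* by -0.12 with overlap (limma adjusted p 0.0532, 0.786 and 0.737). Nerve and Schwann cell markers fell for 2 of 9 genes (*Prph* by 3.04 and *Sox10* by 2.08), against 3.03% of all probes called lower. *Sox10* had no value on 3-month replicate 1, so its fall rests on fewer arrays. All 9 differences were negative with a median of -1.23, against a median of -0.17 over all tested probes. The summed level of these markers, 15.54 to 15.84 at 3 months and 15.41 to 15.60 at 12 months, was mostly that of the brightest gene, *Uchl1*, with means of 15.45 and 15.43. *Pdgfrb*, 1 of 5 mesenchymal markers tested, rose by 1.68, against 5.31% of all probes called higher. The summed level of the mesenchymal markers was 13.25 to 14.05 at 3 months and 14.63 to 15.99 at 12 months. It was in large part that of the brightest gene, *Col3a1*, with means of 12.78 and 14.46 (limma adjusted p 0.0670). All 5 mesenchymal differences were positive. Of 9 acinar, 3 duct, 6 endothelial and 5 immune markers tested 0 passed. The endothelial level was 15.79 to 16.17 at 3 months and 14.94 to 15.70 at 12 months. It was mostly that of *Plvap*, with means of 15.73 and 15.14. Of the 6 endothelial differences 5 were negative, and *Pecam1* differed by 1.23 without overlap (limma adjusted p 0.124). Detection also differed, with 73.0% to 77.4% of probes well above background at 3 months and 59.5% to 64.2% at 12 months. The part of these differences in the receptor readings was not tested.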

How the data were processed

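Age groups came from the labels. The third 12-month array carries no replicate number in the labels, and its number here only names it. Per the file headers, the authors deposited scanner files of Agilent Feature Extraction 11.0.1.1 with background-subtracted spot intensity, median intensity and local background, without normalization between arrays; the other columns read were names and quality flags. A second deposited table, of log2 values that the authors computed for 12145 probes, served as an alternative. Arrays have no read depth, and their number limits the precision.

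Spots flagged as outliers were dropped, the log2 intensity of the remaining spots was averaged per probe, and arrays were quantile normalized. Probes well above background on at least 3 of 6 arrays were kept (17944), of which 17941 were tested by age (two-sided) using the lmFit and eBayes functions of limma 3.58.1, run in R 4.3.3 without a block, and p-values were adjusted by Benjamini-Hochberg. The step was tested on simulated data. Genes were named by RefSeq accession through a table of assembly GRCr8, and the probe with the highest mean stood for a gene. Probe coordinates are left out, since the array was designed on an older build. The receptors and the gene lists were chosen with earlier results of these data known. Named were the 10 receptors, *Gcg*, *Gip*, *Sst*, *Dpp4* and, in each list of other receptors, ligands, tuning and coupling proteins, the genes past an adjusted p of 0.05. *Ffar3*, *Adra1d*, *Galr1*, *Npy1r*, *Adrb3*, *Chrm1*, *Cnr1*, *Gnai2*, *Gnai3*, *Gnaz* and the cell type markers were named after their values were seen. The summed level of a marker list is the log2 of its added linear intensities. The alternatives were other scalings, background corrections, filters, variance models, blocks and probe rules, the authors' table, each array left out and the methods' t-test, an unpaired Student's test; a paired test is given in the supplement for the study's gene lists without saying which arrays were paired, and the numbers in the labels pair only 4 arrays, so it was not run; keeping only probes measured on each of the 6 arrays was added after seeing the data.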

Additional observations from a re-analysis of the deposited data

How the results depend on the processing

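Of the receptor differences, *Gpr119*, *Gipr*, *Gcgr*, *Chrm3* and *Sstr2* kept their direction in all 18 alternatives, and those of *Glp1r*, *Sstr3* and *Sstr5*, none of them called, did not. *Glp1r* was at -0.13 log2 units under the 75th percentile shift, -0.076 under normexp, -0.0093 when arrays were weighted and -0.053 under the replicate block, and ranged from -0.36 to 0.36 with 1 array left out. *Sstr5* was at -0.16 with the shift. *Sstr3* was at -0.91 under the block, -0.028 in the set of 4 arrays that have a common name ending, and ranged from -0.37 to 1.39 with 1 array left out. Of the 10 receptors 1 passed the adjusted threshold, against 0 under the block, in the 4-array set and by the methods' t-test, and between 0 and 1 when an array was left out; at the study's threshold 1 was called in all 18. *Gpr119* was at 1.56 with the block (limma adjusted p 0.254), 1.28 with the 4 arrays (0.208) and 1.52 with the methods' t-test (adjusted p 0.0663 on these log2 values). Of all probes 1496 passed, against 2338 with no filter, 5693 with array weights, 0 under the block, 0 in the 4-array set and 435 by the methods' t-test; leaving out an array gave between 208, where it was 12-month replicate 1, and 2169, where it was 12-month replicate 2. Of the genes of the other 4 lists 8 passed, against 25 with array weights, 0 under the block, 0 in the 4-array set, 2 by the methods' t-test and between 2 and 7 when an array was left out. With the shift *Ffar4* and with normexp *Glp2r* did not pass, at 0.0520 and 0.188 (limma). At the study's threshold 3953 probes were called, 2102 with normexp, 2379 on the authors' table, which covers fewer probes, 2604 with the 4 arrays and 2735 with the methods' t-test. With the shift 795 calls were higher and 926 lower, and with array weights 2405 and 3288, against 953 and 543.

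The block and the 4-array set use fewer arrays; for the others the cause was not tested. The labels do not say that equal numbers mark pairs: deviations of the arrays numbered 1 correlated at -0.01 across probes and of those numbered 2 at -0.31, and the block was fitted on these 4. A block by scan or slide could not be fitted, as no scan holds both ages. Array weights gave 12-month replicate 1 a weight of 8.56. The higher background at 12 months limits what can be said of *Ffar1* and *Sstr5*.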
